A study of Homo sapiens with 97 samples.

Results

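The genes described here encode the cytosolic chaperonin, known as CCT or TRiC: the 8 coding subunits TCP1, CCT2, CCT3, CCT4, CCT5, CCT6A, CCT7 and CCT8, together with CCT6P1, a transcribed pseudogene of CCT6A. They were chosen by gene symbol, with no threshold on a measured value, and make up 9 of the 60675 gene identifiers counted in the series. The family was proposed after results of these same libraries had been seen. Which contrast led to it is not recorded, so the fold changes and adjusted p-values of the 9 genes are given as descriptions and support nothing beyond themselves.

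The chaperonin is a large protein machine of stacked rings, each built from 8 different subunits, which closes around an unfolded protein and opens again as its subunits bind and hydrolyse ATP. Actin and the tubulins cannot fold without it, and the WD-repeat protein CDC20 is another well known client. Prefoldin hands it newly made actin and tubulin chains, phosducin-like and thioredoxin-like proteins modulate it, and the tubulin cofactors take tubulin onward to the heterodimer. All the subunits are soluble proteins without a signal for the endoplasmic reticulum (ER) or the mitochondrion, so their messenger RNAs are read by ribosomes in the cytosol.

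The study measured where RNA lies in HEK293T cells, a transformed human embryonic kidney line, by APEX-seq. Cells stably expressing the peroxidase APEX2, fused to a targeting sequence, received biotin-phenol and then hydrogen peroxide, so that RNA near the enzyme was biotinylated, enriched on streptavidin and sequenced. In all there were 97 libraries in 49 groups, with 2 libraries in each group used here, given by the submitters as biological replicates. Labelled libraries were set against unlabelled libraries of the same line, which were handled alike but without hydrogen peroxide. The 9 fusion constructs were NLS (nucleus), NIK (nucleolus), LMA (nuclear lamina), NucPore (nuclear pore), ERM (ER membrane, facing the cytosol), OMM (outer mitochondrial membrane), NES (cytosol), KDEL (ER lumen) and MITO (mitochondrial matrix). OMM and NES cells were also labelled after cycloheximide, puromycin or CCCP, and after nocodazole for 3, 6, 9 or 30 min or 2 h. The labels used here give no dose for these drugs and no duration for cycloheximide, puromycin and CCCP. Cycloheximide stops elongation and keeps nascent chains on ribosomes, puromycin releases nascent chains and disassembles polysomes, CCCP collapses the mitochondrial membrane potential, and nocodazole depolymerises microtubules. MITO cells gave a further set without poly(A) selection, called total RNA below, and HEK293T cells without labelling were separated into a nuclear and a cytosol fraction. All other libraries were poly(A)-selected. Each construct line shares its fusion protein between labelled and unlabelled libraries, and whether a line is 1 clone is not given in the sources used here.

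Gene positions are those of GENCODE release 29 on GRCh38. TCP1, the alpha subunit, lies at chr6:159778498-159789749 on the minus strand, CCT2 (beta) at chr12:69585334-69601570 on the plus strand, and CCT3 (gamma) at chr1:156308968-156367873 on the minus strand. CCT4 (delta) lies at chr2:61868089-61888804 on the minus strand, CCT5 (epsilon) at chr5:10249921-10266412 on the plus strand, and CCT6A (zeta) at chr7:56051630-56063989 on the plus strand. CCT7 (eta) lies at chr2:73233420-73253021 on the plus strand, CCT8 (theta) at chr21:29055805-29073797 on the minus strand, and CCT6P1 at chr7:65751142-65763354 on the plus strand. The 8 coding genes thus lie at separate loci, and the pseudogene sits on the chromosome of its parent, on the other side of the centromere. CCT4 and CCT7 share chromosome 2.

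How far reads of CCT6P1 can be told from those of CCT6A depends on their sequences, so a pair of stretches is shown here. Over 1536 aligned bases the transcripts of CCT6A and CCT6P1 were 94.7% identical, with 81 differing bases and 14 gaps. Each line below holds 75 bases, the length of one read of a pair, 5′ to 3′ on the plus strand, and capitals mark bases that differ between parent and pseudogene.
CCT6A, exon 1, chr7:56051906-56051980: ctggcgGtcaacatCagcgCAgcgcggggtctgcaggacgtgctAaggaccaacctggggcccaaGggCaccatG
CCT6P1, exon 1, chr7:65751199-65751273: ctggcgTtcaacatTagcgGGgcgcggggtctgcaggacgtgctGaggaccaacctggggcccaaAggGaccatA
CCT6A, exon 3, chr7:56054369-56054443, and CCT6P1, exon 3, chr7:65754527-65754601: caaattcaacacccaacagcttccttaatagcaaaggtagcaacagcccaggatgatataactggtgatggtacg
The stretch in exon 1 holds 8 differences, the most of any, and the stretch in exon 3 holds none. Of 310 such windows inside a coding exon of both genes, 6 had no difference. A second pseudogene, CCT6P3, is closer still: it was 99.2% identical to CCT6P1 over 652 aligned bases, and 31.4% of all 75-base words of the CCT6P1 transcript occurred in transcripts of other genes, mostly CCT6P3. For the coding subunits that share was 1.4% or less. Counts of CCT6P1 are therefore uncertain as to copy, while a read of CCT6A will rarely be identical to the pseudogene. The antisense transcript AC073107.1 overlaps CCT6P1 and held 14.98% as many counts, and ACAT2 overlaps TCP1 on the other strand with 18.93% as many. The library kit marks strand, but the strand setting of the counting is not given in the sources used here.

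Libraries of the 9 constructs held 9.33 to 76.71 M gene counts (M, mega), the drug libraries 22.75 to 55.76, the nocodazole libraries 15.47 to 33.97, the fractions 34.96 to 44.97, and the total RNA libraries of MITO 2.84 to 7.88 M. Levels are given as CPM (counts per M counts) of a library total scaled by the trimmed mean of M-values (TMM), and each count table was scaled and fitted on its own. Landmark RNAs lay where the labels put them: the nuclear MALAT1 had a log2 fold change of 3.65 ± 0.52 in labelled against unlabelled NLS libraries, the mitochondrially encoded MT-ND5 of 5.39 ± 0.37 in MITO, the ER chaperone messenger CANX of 2.10 ± 0.18 in ERM, and IARS2, which encodes a mitochondrial tRNA synthetase, of 3.00 ± 0.18 in OMM. No landmark passed the threshold in KDEL or NucPore, and none was called higher in NES. Of the 4 landmarks, 2 were called higher in ERM and 2 in OMM, so a landmark of another place was high there too. Some libraries had lost part of their complexity: among genes averaging at least 5 CPM, up to 7.73% had no count in libraries of the constructs and drugs, and up to 16.3% in the unlabelled OMM nocodazole libraries, against 0 in the fractions. A gene was called at an adjusted p under 0.05.

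Before any comparison, the subunit messengers were abundant and of one order of magnitude. Per kb of the longest annotated transcript, the median level over the 18 unlabelled construct libraries was 498 CPM per kb for CCT3, 381 for CCT7, 326 for CCT4, 264 for CCT8, 261 for CCT2, 254 for TCP1, 213 for CCT6A and 178 for CCT5. CCT3 ranged over 424 to 639 CPM per kb and CCT7 over 334 to 554, so that neighbours in this order overlapped between libraries. CCT8, CCT2 and TCP1 lay within one another's ranges. Divided instead by the length of all annotated exons, CCT4 came first at 290 CPM per kb and CCT3 next at 267, so the order rests on the choice of length. CCT6P1 was far below all of them, at 4.43 CPM per kb. The testis paralog CCT6B never exceeded 6.31 CPM in the construct libraries and had no count in 14 of those 36.

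In the fractions, which involve no labelling, every subunit messenger was more abundant in cytosol than in nuclei. The gap was widest for CCT8, with 548 and 454 CPM in the nuclear fraction against 1162 and 1256 CPM in the cytosol fraction. It was narrowest for CCT3, at 930.2 and 819.8 CPM in nuclei and 1397 and 1589 CPM in cytosol. For none of the 8 did the fractions overlap. In log2, nuclear over cytosolic, CCT8 was at -1.27 ± 0.18 (edgeR adjusted p = 6.8e-05) and CCT3 at -0.77 ± 0.18 (edgeR adjusted p = 0.00264). The median of the 8 was -1.03, beside 0.11 over all 19115 genes tested and -0.67 over genes averaging at least 100 CPM. All 8 were called lower in nuclei, where 27.9% of all genes and 60.2% of the abundant ones were. Without the second cytosol library 7 were called. Summed, the 8 messengers came to 5256 and 4441 CPM in nuclei and 9352 and 10310.0 CPM in cytosol. Counts are relative to the library, so less of these messengers in a nucleus and more of other RNA there cannot be told apart.

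Labelling from inside the nucleus gave lower levels than in unlabelled libraries, a direction also found outside the nucleus. The median of the 8 was -0.69 with NLS, beside -0.49 with NES, -0.78 with OMM and -1.01 with ERM. No nuclear construct was tested against NES. In NLS libraries CCT7 stood at 488 and 423 CPM labelled against 872 and 926 CPM unlabelled, a log2 fold change of -0.98 ± 0.15 (edgeR adjusted p = 5.92e-05). CCT5, a subunit altered in a hereditary sensory neuropathy, had 439 and 439.8 CPM labelled and 878 and 789.9 CPM unlabelled, with -0.92 ± 0.15 (edgeR adjusted p = 0.000158). In both genes the labelled libraries lay clear of the unlabelled ones, as they did for all 8 subunits with NLS. CCT3, CCT4, CCT5, CCT7 and CCT8 were called lower, 5 of 8, where 2.45% of all genes and 19.5% of the abundant ones were. TCP1 at -0.47 ± 0.16, CCT2 at -0.53 ± 0.17 and CCT6A at -0.54 ± 0.17 missed the threshold. There were 3 calls without labelled replicate 1, labelled replicate 2 or unlabelled replicate 2, and 4 without unlabelled replicate 1.

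LMA, at the nuclear lamina, gave 7 calls of 8, all lower, against 4.03% of all genes and 27.2% of the abundant ones. CCT7 again had the lowest log2 fold change, at 362 and 362 CPM labelled against 707 and 749 CPM unlabelled (-1.01 ± 0.15 in log2, edgeR adjusted p = 2.3e-05), followed by CCT3 at -0.97 ± 0.18 and CCT4 at -0.92 ± 0.17. TCP1 had 359 and 365 CPM labelled against 702 and 626 CPM unlabelled (-0.88 ± 0.16). Only CCT6A was not called, at -0.52 ± 0.17 (edgeR adjusted p = 0.0599), although its libraries did not overlap either. Without labelled replicate 1 there were 4 calls, and 6 or 7 without any other LMA library.

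The nucleolar construct NIK divided the family. CCT7 had 460.2 and 428 CPM labelled and 767 and 693 CPM unlabelled (-0.72 ± 0.15, edgeR adjusted p = 0.00299), and CCT3 and CCT4 were called lower with it, at -0.70 ± 0.18 and -0.62 ± 0.17. CCT6A stood at 621 and 590.1 CPM labelled against 537 and 573 CPM unlabelled, and TCP1 at 617 and 617 against 652 and 607. For these, and for CCT2 and CCT8, log2 fold changes ran between -0.03 and 0.13, and with CCT5 at -0.45 ± 0.15 they made up the 5 that were not called. The 3 calls compare with 3.92% of all genes called lower and 14.4% of the abundant ones. There were 0 calls without unlabelled replicate 1, 1 without unlabelled replicate 2, 2 without either labelled replicate, and 0 without the filter on low counts. Both labelled NIK libraries had lost complexity, with 5.96% and 2.88% of well expressed genes at 0. With the first of them and the other construct libraries of low complexity removed, as set out below, the median of the 8 was -0.36. It was -0.24 with all libraries. The second labelled library was kept, so its part in the result was not tested. At the nuclear pore no subunit was called, nor was any gene (0% in either direction), and the 8 log2 fold changes ran over -0.43 to -0.13. CCT8 had 390.1 and 381 CPM labelled against 439.6 and 447 CPM unlabelled there.

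**Figure D1:**
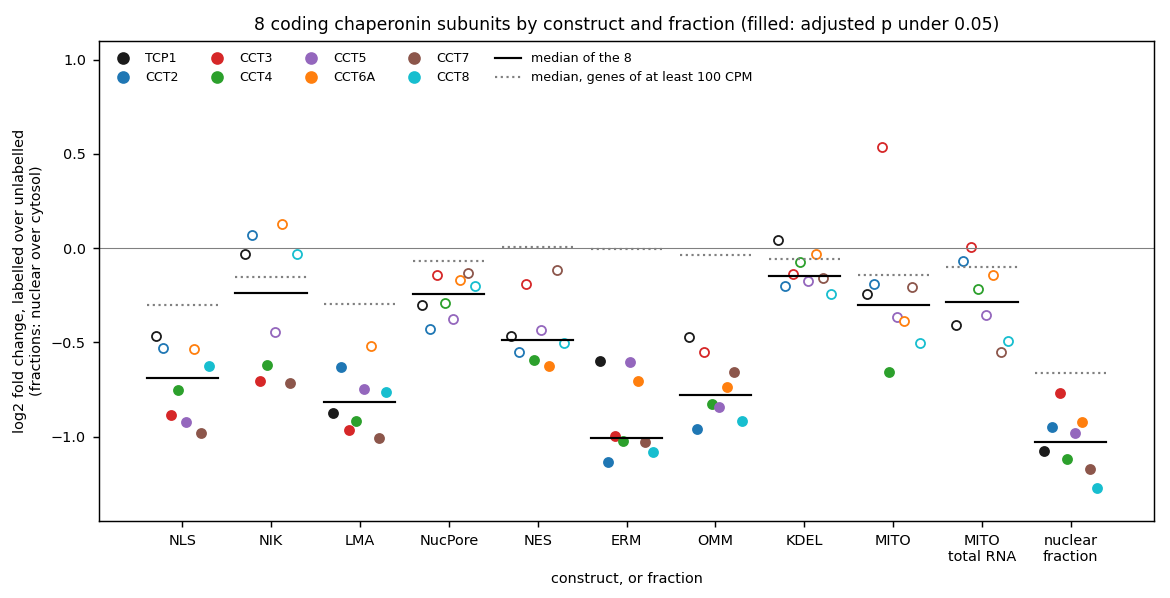
Log2 fold changes (vertical axis) of the 8 subunits in labelled against unlabelled libraries of each construct and of MITO total RNA, and in the nuclear against the cytosol fraction. Each circle is the edgeR estimate of 1 gene from 2 libraries a group, filled where called, with a solid line at the median of the 8 and a dotted line at the median of genes averaging at least 100 CPM; all 8 circles are filled for ERM and the nuclear fraction, and none for NucPore, KDEL or MITO total RNA.

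At the cytosolic faces of membranes the subunit messengers were lower as well, and all 8 were called at the ER membrane. With ERM, CCT2 stood at 294 and 313 CPM labelled against 749 and 584 CPM unlabelled, a log2 fold change of -1.13 ± 0.18 (edgeR adjusted p = 1.03e-05). CCT7 had 351 and 393 CPM labelled and 738 and 779.9 CPM unlabelled, with -1.03 ± 0.15 (edgeR adjusted p = 5.12e-06). The smallest shifts were those of TCP1 (-0.60 ± 0.16) and CCT5 (-0.60 ± 0.15). All 8 were called lower, against 7.64% of all genes and 28.8% of the abundant ones, and the median of the 8 was -1.01 beside -0.00 for abundant genes. Without unlabelled replicate 1 there were 5 calls, and 6 or 7 without any other ERM library. The first labelled ERM library lacked counts for 4.90% of well expressed genes. With it and the other construct libraries of low complexity removed, all 8 were still called. Removed here and below, by a choice made after seeing the data, were libraries with over 2% of well expressed genes at 0, except that each group kept the fuller of its libraries.

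At the outer mitochondrial membrane CCT2 had 346 and 313 CPM labelled and 532 and 750.4 CPM unlabelled, with a log2 fold change of -0.96 ± 0.17 (edgeR adjusted p = 0.000362). CCT8 had 322 and 281 CPM labelled and 596 and 543 CPM unlabelled, with -0.92 ± 0.17 (edgeR adjusted p = 0.000316). TCP1, the weakest, had 468 and 451 CPM labelled and 684 and 591 CPM unlabelled, with -0.47 ± 0.16 (edgeR adjusted p = 0.0885). For each of the 8, both labelled libraries lay below both unlabelled ones. CCT4, CCT5, CCT6A and CCT7 joined CCT2 and CCT8 among the 6 called lower, where 1.97% of all genes and 14.1% of the abundant ones were, and CCT3 at -0.55 ± 0.18 was not called. The sum of the 8 messengers was 3634 and 3252 CPM labelled against 5727 and 5632 CPM unlabelled. Calls numbered 2 without labelled replicate 2, 3 without unlabelled replicate 2 and 5 without either of the others, and there were none when the 4 OMM libraries were fitted alone. The second unlabelled library had 3.95% of well expressed genes at 0. With it and the other libraries of low complexity taken out of the whole table, all 8 subunits were called.

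In the cytosol itself, with NES, shifts were smaller but in one direction. CCT6A had 439 and 428 CPM labelled against 789 and 547 CPM unlabelled (-0.62 ± 0.17, edgeR adjusted p = 0.0298). CCT4 had 602 and 599 CPM labelled against 1057 and 751 CPM unlabelled (-0.59 ± 0.17, edgeR adjusted p = 0.0373). These were the 2 calls, beside 2.47% of all genes and 15.7% of the abundant ones called lower. CCT7 was nearly level, at 628 and 669.8 CPM labelled and 678 and 728 CPM unlabelled, and so was CCT3 at -0.19 ± 0.17. The first unlabelled NES library, with 3.31% of well expressed genes at 0, held the highest CCT2, CCT4, CCT5, CCT6A, CCT8 and TCP1 of the group. Without it no subunit was called, nor without either labelled library, and its removal moved the median to -0.31, against -0.49 with all libraries.

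The difference between places was tested directly. ERM minus NES, the median of the 8 differences was -0.50, beside -0.45 over all genes and -0.16 over abundant ones. Called lower were 1.66% of all genes and 10.2% of the abundant ones. CCT7 differed by -0.91 ± 0.21 (edgeR adjusted p = 0.00802), the only call of 8. It was lost without the filter on low counts (edgeR adjusted p = 0.169), with the replicate number as a block (0.109), with only the 8 libraries of both constructs (0.103), and without labelled ERM replicate 1, unlabelled ERM replicate 2, either labelled NES library or unlabelled NES replicate 1 (0.0549 to 0.17). Removing the libraries of low complexity gave 3 calls, CCT3, CCT4 and CCT7. OMM minus NES, the 8 differences ran over -0.54 to -0.01 with a median of -0.38, and none was called, against 1.76% of genes in either direction. TCP1 differed least, by -0.01 ± 0.22, and CCT7 most, by -0.54 ± 0.21 (edgeR adjusted p = 0.348). ERM and OMM share the NES libraries in these comparisons.

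Constructs enclosed by membranes gave few calls. In the ER lumen no subunit and no gene was called (0% in either direction), and CCT8 had 437 and 458 CPM labelled against 516 and 544 CPM unlabelled. The 8 log2 fold changes with KDEL ran over -0.24 to 0.04. In the mitochondrial matrix CCT4 alone was called, at 721 and 618 CPM labelled against 1211 and 899 CPM unlabelled (-0.66 ± 0.17, edgeR adjusted p = 0.0441), where 0.185% of all genes and 1.71% of the abundant ones were called lower. That call was lost without labelled replicate 2 or unlabelled replicate 1. CCT3 went the other way in a single library, with 1281 and 2291 CPM labelled against 1347 and 1119.6 CPM unlabelled (0.53 ± 0.18, edgeR adjusted p = 0.218). The groups overlapped, since labelled replicate 1 lay between the unlabelled libraries. The direction for CCT3 rests on the scaling: on unscaled totals both labelled libraries lay below both unlabelled ones. Summed, the 8 messengers came to 5610 and 6412 CPM labelled against 7480 and 5853 CPM unlabelled. On unscaled totals the sums were 3172 and 2567 CPM labelled against 6845 and 5990 CPM unlabelled. In the total RNA libraries of MITO, CCT3 had 356 and 506 CPM labelled and 448 and 412 CPM unlabelled. Summed, the 8 messengers came to 2018 and 1886 CPM labelled against 2321 and 2326 CPM unlabelled. These levels rest on the scaling too: on unscaled totals the sums were 634.1 and 1267 CPM labelled against 3308 and 3324 CPM unlabelled. None of the 8 was called there, against 0.604% of genes in either direction.

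Drugs that act on translation gave opposite signs at OMM for CCT8. After cycloheximide CCT8 had 286 and 301 CPM in labelled OMM libraries against 477 and 369 CPM in unlabelled ones, a log2 fold change of -0.53 ± 0.14 (edgeR adjusted p = 0.0122). After puromycin it had 674 and 646 CPM labelled against 416 and 414 CPM unlabelled, with 0.67 ± 0.14 (edgeR adjusted p = 0.0127). Labelled lay wholly below unlabelled with one drug and wholly above it with the other. CCT2 had 319 and 346 CPM labelled against 742 and 726 CPM unlabelled after cycloheximide (-1.14 ± 0.15, edgeR adjusted p = 2.52e-05). After puromycin CCT2 had 486 and 431 CPM labelled against 551 and 521 CPM unlabelled (-0.23 ± 0.15, edgeR adjusted p = 0.658). For CCT5 the values were 331 and 316 CPM labelled and 719 and 613 CPM unlabelled after cycloheximide (-1.04 ± 0.14), and 619 and 583 CPM labelled and 612 and 639 CPM unlabelled after puromycin (-0.06 ± 0.14). CCT5 thus had a clear gap with cycloheximide and overlapping groups with puromycin.

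Across the family, all 8 subunits were called lower at OMM after cycloheximide, where 5.38% of all genes and 21.5% of the abundant ones were, and their median was -0.72. After puromycin the median at OMM was -0.01 and the range -0.25 to 0.67, with CCT8 the 1 call, higher, beside 0.947% of all genes and 6.83% of the abundant ones called higher. In CPM the 8 messengers summed to 3213 and 3329 labelled against 5706 and 5350 unlabelled with cycloheximide. With puromycin the sums were 5308 and 5224 labelled and 4978 and 5188 unlabelled. When the OMM cycloheximide libraries were fitted alone, 1 of the 8 was called. There were 5 calls after cycloheximide without labelled or unlabelled replicate 1, and 6 or 8 without the others. The CCT8 call after puromycin did not survive leaving out any 1 of its 4 libraries (edgeR adjusted p = 0.153 to 0.423) or dropping the filter on low counts (0.0717), although its direction did. The unlabelled cycloheximide libraries had 3.08% and 7.73% of well expressed genes at 0, and without the second of them all 8 were called and the median was -0.87.

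In the cytosol neither drug gave a call for CCT8. With NES, CCT8 had 392 and 468 CPM labelled against 518 and 582 CPM unlabelled after cycloheximide (-0.36 ± 0.14), and 465 and 457 CPM labelled against 442 and 430.5 CPM unlabelled after puromycin (0.08 ± 0.14). CCT2, CCT4, CCT5 and CCT7 were called lower after cycloheximide, 4 of 8, where 7.74% of all genes and 25.2% of the abundant ones were, and TCP1, CCT2 and CCT4 after puromycin, 3 of 8, where 4.57% and 17.6% were. TCP1 had 429 and 421 CPM labelled and 639.6 and 742 CPM unlabelled after puromycin, with -0.70 ± 0.15 (edgeR adjusted p = 0.00402). Fitting only the libraries of a comparison gave 1 call after cycloheximide and 3 after puromycin. For cycloheximide there were 2 calls without labelled replicate 1 and 4 or 5 without the others. For puromycin there were 0 without either labelled library or unlabelled replicate 2, a library with 2.13% of well expressed genes at 0, and 3 without unlabelled replicate 1.

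CCCP gave calls with both constructs. CCT4, the delta subunit, had 543 and 532 CPM labelled against 970.3 and 909 CPM unlabelled at OMM (-0.81 ± 0.14, edgeR adjusted p = 0.000993). In the cytosol CCT4 had 509 and 607 CPM labelled against 990.4 and 935 CPM unlabelled (-0.79 ± 0.14, edgeR adjusted p = 0.000871). At OMM 3 of 8 were called lower (CCT2, CCT4 and CCT5), against 3.57% of all genes and 14.5% of the abundant ones, with a median of -0.47. At NES 5 of 8 were (those and CCT6A and CCT7), against 5.09% and 19.6%, with a median of -0.52. At OMM there was 1 call without either labelled library or unlabelled replicate 1 and there were 2 without unlabelled replicate 2. At NES there were 0 without labelled replicate 1, 1 without unlabelled replicate 2 and 2 without either of the others. OMM minus NES, the differences under CCCP ran over -0.08 to 0.31 and none was called, where 0.00466% of genes were in either direction.

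**Figure D2:**
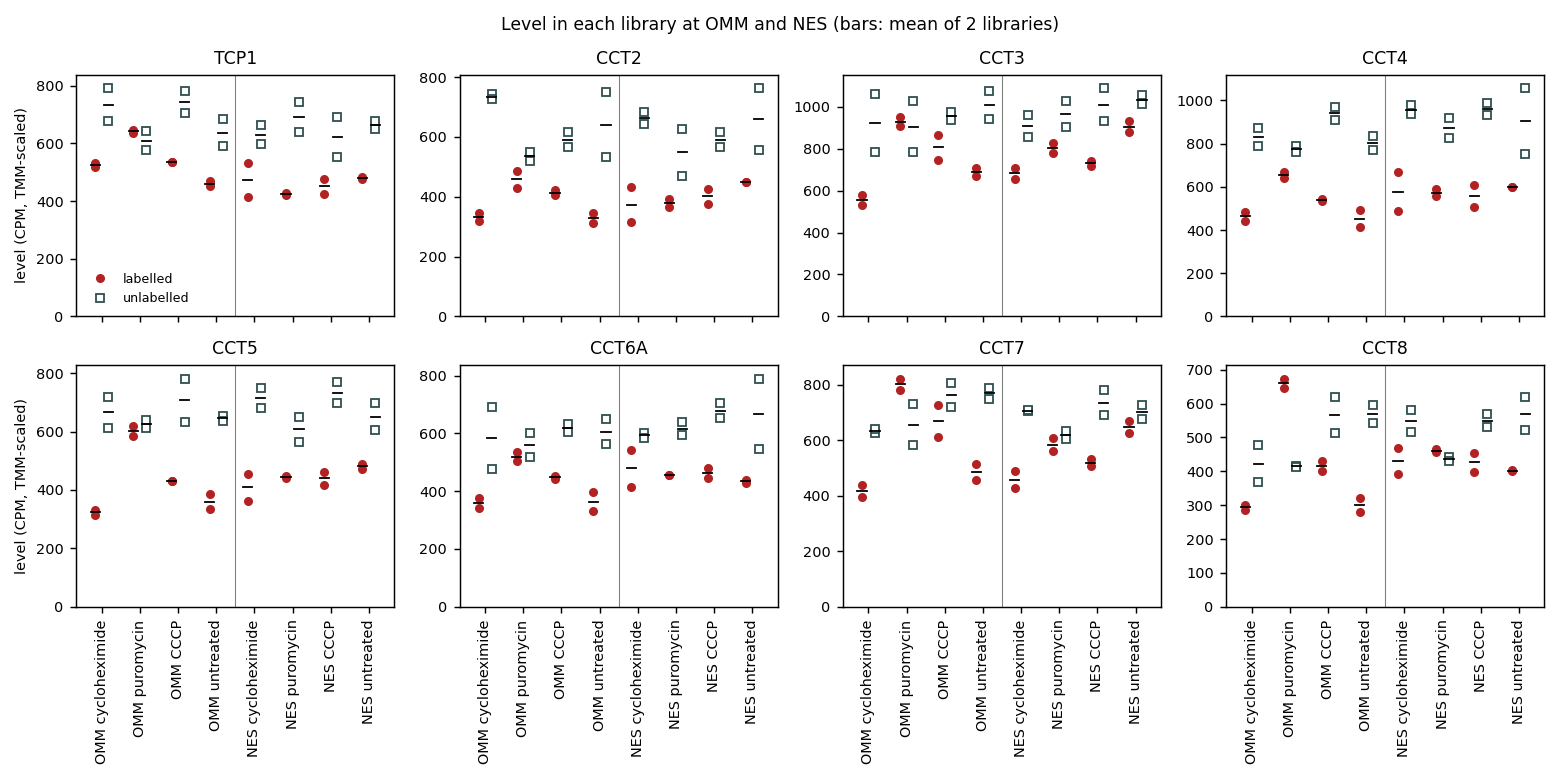
Level in CPM (vertical axis, from 0) of the 8 subunits in each library of OMM and NES after cycloheximide, puromycin or CCCP and untreated, with labelled libraries as filled circles left of unlabelled ones as open squares and bars at the means of 2 libraries. Untreated libraries were scaled in another count table; at OMM, labelled CCT8 lies at 286 and 301 CPM with cycloheximide and at 674 and 646 CPM with puromycin.

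Within the drug libraries the contrast of cycloheximide with puromycin was tested as a difference of differences. At OMM, CCT8 was lower after cycloheximide than after puromycin by a log2 difference of -1.20 ± 0.20 (edgeR adjusted p = 0.000731), CCT5 by -0.98 ± 0.20 (edgeR adjusted p = 0.00423) and CCT7 by -0.89 ± 0.19 (edgeR adjusted p = 0.00666). CCT2 at -0.92 ± 0.22 and CCT3 at -0.77 ± 0.22 also passed, making 5 of 8 called lower where 1.07% of all genes and 7.21% of the abundant ones were. CCT4 at -0.59 ± 0.20, CCT6A at -0.59 ± 0.22 and TCP1 at -0.56 ± 0.20 had the same sign and were not called. In yeast, CCT2, CCT4, CCT5 and TCP1 form the side of the ring with high affinity for ATP and the others the side with low affinity, and the called subunits came from both sides. The median was -0.83, beside 0.37 over all genes and -0.18 over abundant ones. The count was 1 without unlabelled puromycin replicate 1, 2 without labelled cycloheximide replicate 1, 3 without labelled cycloheximide replicate 2 or any other puromycin library, 5 without either unlabelled cycloheximide library, and 7 with the libraries of low complexity removed. Fitting only the libraries of this contrast gave 3 calls at OMM. In the cytosol the same contrast ran over -0.54 to 0.28 with no call (0.168% of genes in either direction). Whether the contrast itself differed between OMM and NES was not tested.

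Set against NES within each drug, OMM differed by no call for any subunit. Under cycloheximide the OMM minus NES differences ran over -0.39 to 0.02, with 0 of 8 called although 13.5% of all genes were in either direction. CCT6A, at -0.39 ± 0.22, was called when the libraries of low complexity were removed (among them unlabelled OMM replicate 2), at -0.71 (edgeR adjusted p = 0.0326). Under puromycin all 8 differences were above 0, over 0.31 to 0.78, the widest being that of TCP1, and 0 were called, against 0.103% of genes. Untreated OMM libraries sit in another count table. Their CCT8 values, 322 and 281 CPM labelled and 596 and 543 CPM unlabelled, can be set beside the puromycin ones given above but were not tested against them.

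**Figure D3:**
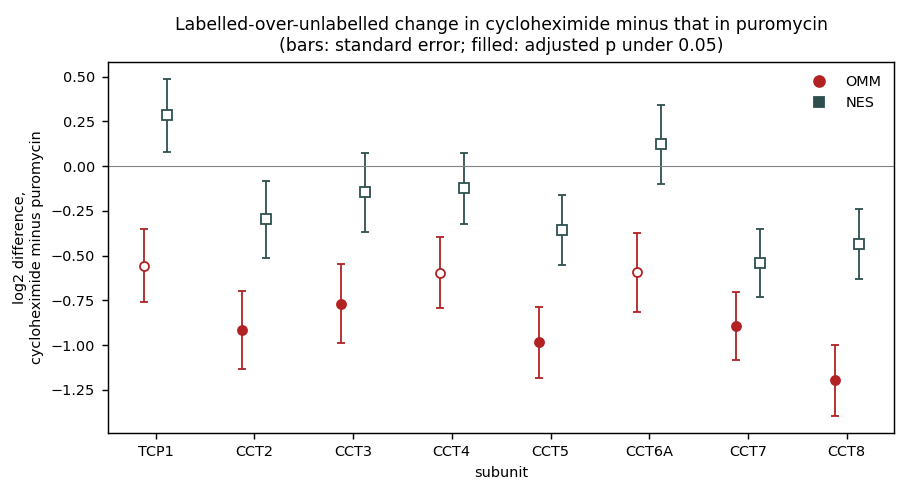
Log2 difference (vertical axis) between the labelled over unlabelled change in cycloheximide and that in puromycin, for the 8 subunits at OMM (circles) and NES (squares), with standard errors and filled symbols where called. All 8 lie below 0 at OMM, between -1.20 for CCT8 and -0.56 for TCP1, and no NES symbol is filled.

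Nocodazole, which removes microtubules, was followed from 3 min to 2 h. Every library of this set had the drug, so the fold changes compare labelled with unlabelled libraries. An effect of nocodazole itself was not tested. Untreated OMM, scaled in another count table, had a median of -0.78 and CCT8 at -0.92. At OMM the labelled libraries held CCT8 at 356 and 327 CPM at 3 min, 348 and 351 CPM at 6 min, 413 and 292 CPM at 9 min, 339.7 and 297 CPM at 30 min, 389 and 389 CPM at 2 h. The 4 unlabelled libraries, 2 of 3 min and 2 of 30 min, held 697 and 473 CPM and 571 and 592 CPM. CCT8 was lower in labelled than in unlabelled libraries at each time, with no overlap. Its log2 fold changes were -0.77 ± 0.16, -0.74 ± 0.16, -0.73 ± 0.16, -0.87 ± 0.16 and -0.59 ± 0.16 in order of time, each against the mean of all 4 unlabelled libraries, since 6 min, 9 min and 2 h have none of their own. TCP1 behaved differently: its labelled libraries held 574 and 622 CPM at 3 min, 677 and 649.7 CPM at 6 min, 537 and 582 CPM at 9 min, 503 and 499 CPM at 30 min, 478 and 540.4 CPM at 2 h, against 705 and 559 CPM and 823 and 633 CPM unlabelled. Those values overlapped up to 9 min, and TCP1 was called at no time, with log2 fold changes from -0.03 ± 0.19 at 6 min to -0.44 ± 0.19 at 30 min.

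At OMM 6, 6, 7, 7 and 6 of the 8 subunits were called lower at 3 min, 6 min, 9 min, 30 min and 2 h, where 1.88%, 2.98%, 2.52%, 2.06% and 2.89% of all genes were. Of the abundant genes 11.3%, 14.2%, 14.1%, 12.2% and 13.7% were. The medians were -0.62, -0.72, -0.70, -0.72 and -0.55. CCT7 was not called at 3 and 6 min and CCT4 not at 2 h, and CCT6A, the zeta subunit, was called throughout. CCT7 had 612 and 520.4 CPM labelled at 3 min and 449.5 and 394 CPM labelled at 30 min. With 1 labelled library of a time left out, the calls numbered 2 or 3 at 3 min, 3 or 4 at 6 min, 2 or 4 at 9 min, 3 or 5 at 30 min and 1 or 2 at 2 h. Fitting only the libraries of a comparison gave 0 calls except at 6 min, with 3. All 4 unlabelled OMM libraries had lost complexity (2.96% to 16.3% of well expressed genes at 0). With the nocodazole libraries of low complexity removed, which leaves 1 unlabelled OMM library of each time with 11.6% and 2.96% of well expressed genes at 0, there were 5 to 8 calls.

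With NES under nocodazole the medians of the 8 were -0.30, -0.27, -0.35, -0.42 and -0.41 in order of time. TCP1 had lower estimates there than at OMM at each time, -0.54 ± 0.19, -0.46 ± 0.19, -0.54 ± 0.19, -0.60 ± 0.19 and -0.50 ± 0.19, without a call. CCT3, the gamma subunit, was called at 3 min, 9 min, 30 min and 2 h, and CCT4 at 3 min, 6 min, 30 min and 2 h. CCT3 had 588 and 607 CPM in labelled libraries of 2 h against 1018 and 1003 CPM and 889 and 1033 CPM in the unlabelled ones, without overlap, a log2 fold change of -0.72 ± 0.12 (edgeR adjusted p = 0.00103). CCT7 was called at 2 h alone, at -0.58 ± 0.15. In all, 2, 1, 1, 2 and 3 of 8 were called lower in order of time, against 2.14%, 2.35%, 0.821%, 1.39% and 1.80% of all genes and 11.9%, 12.4%, 5.77%, 9.19% and 10.9% of the abundant ones. CCT8 overlapped between labelled and unlabelled libraries at each time but 30 min. Unlabelled replicate 1 of 30 min had the lowest sum of the 8 messengers among the unlabelled NES libraries, 4525 CPM, and without it 3, 3, 4, 4 and 4 were called. Without labelled replicate 1 of the time there were 0, 0, 0, 0 and 1, and without unlabelled replicate 2 of 3 min 0, 0, 1, 1 and 2.

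OMM minus NES under nocodazole, none of the 8 was called at 3, 6, 9 or 30 min or 2 h, against 2.34%, 2.08%, 1.23%, 1.11% and 1.00% of genes in either direction. CCT8 differed by -0.57 ± 0.22 to -0.69 ± 0.22 and TCP1 by 0.08 ± 0.27 to 0.42 ± 0.27. All these comparisons share their unlabelled libraries. With the libraries of low complexity removed, CCT6A and CCT8 were called lower at OMM at 3, 9 and 30 min, and CCT2, CCT6A and CCT8 at 6 min. At 2 h there was still no call. Leaving out unlabelled OMM replicate 2 of 3 min alone gave 1 call at 3, 6, 9 and 30 min, unlabelled OMM replicate 2 of 30 min 1 at 3, 6 and 9 min, and unlabelled NES replicate 1 of 30 min 1 at 3 and 6 min.

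**Figure D4:**
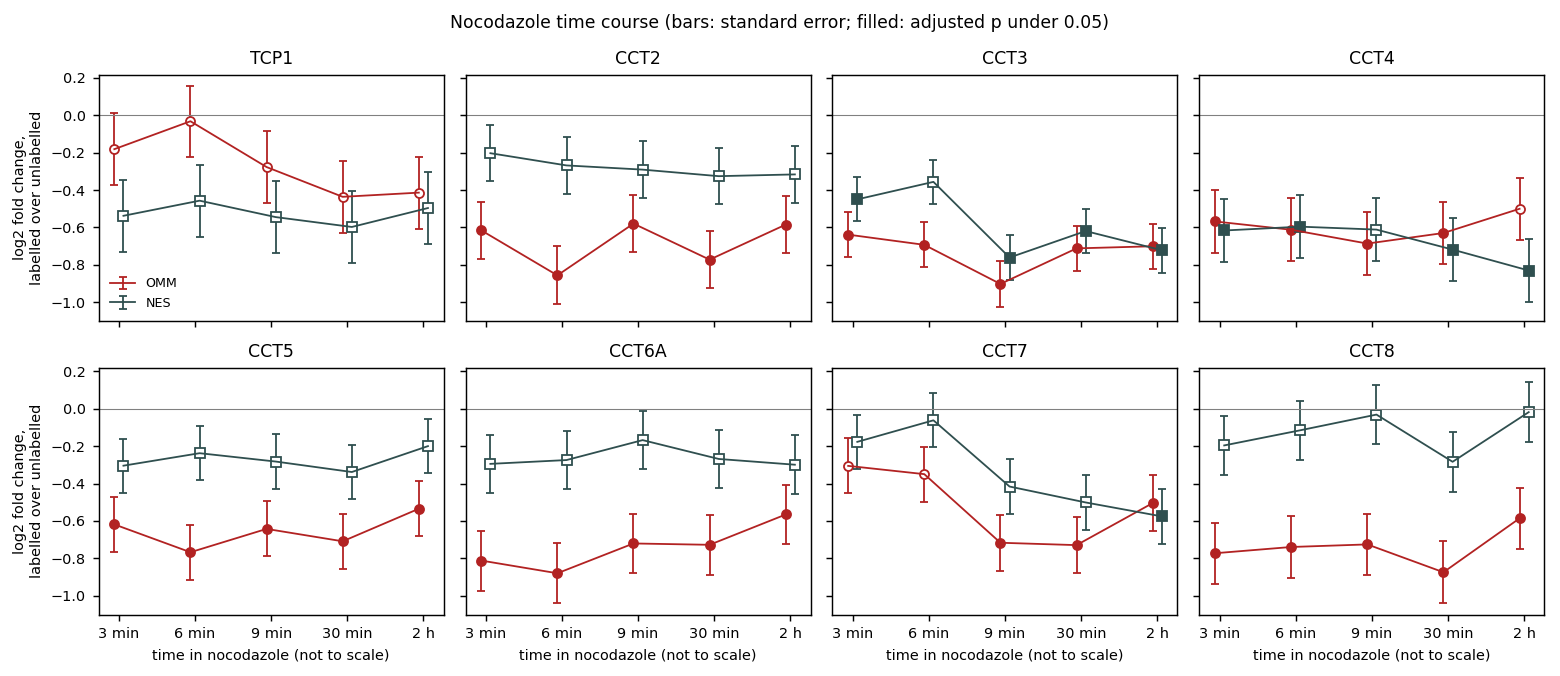
Log2 fold changes (vertical axis) of the 8 subunits in labelled against unlabelled libraries of OMM (circles) and NES (squares) at the 5 times of nocodazole (horizontal axis, not to scale), with standard errors and filled symbols where called. CCT8 is filled at each time at OMM and at none at NES, and TCP1 at none.

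The pseudogene went against its parent between the fractions. CCT6P1 had 24.5 and 23.2 CPM in the nuclear fraction against 7.63 and 6.10 CPM in the cytosol fraction, a log2 fold change of 1.80 ± 0.27 (edgeR adjusted p = 0.000118). Of the abundant genes, a class CCT6P1 lies below, 18% were called higher in nuclei. The share called higher over all genes is not given here. CCT6A had 604 and 514 CPM in the nuclear fraction against 1051 and 1067 CPM in the cytosol fraction, with -0.92 ± 0.18 (edgeR adjusted p = 0.000586). For every 100 counts of CCT6A there were 4.06 and 4.52 counts of CCT6P1 in nuclei and 0.726 and 0.572 in cytosol. Per kb of transcript these ratios were 7.15 and 7.96 in nuclei and 1.28 and 1.01 in cytosol. The near-identical CCT6P3 had 345 and 341 counts in nuclei against 61.0 and 58.0 in cytosol. How reads were divided between these copies was not tested.

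Labelling in the nucleus gave a higher ratio too. Over the 8 labelled libraries of NLS, NIK, LMA and NucPore there were 1.51 to 6.44 CCT6P1 counts per 100 of CCT6A, with a median of 3.89. In their 8 unlabelled libraries there were 0 to 1.65, with a median of 0.813. These ranges overlapped between 1.51 and 1.65. The labelled ratios were 4.62 and 6.44 for NLS, 5.68 and 5.81 for LMA, 3.17 and 1.95 for NIK and 1.51 and 2.90 for NucPore. In the other 5 constructs the ratio was 0.469 to 2.78 in labelled libraries, with a median of 1.52, against 0.153 to 2.40 in unlabelled ones, with a median of 1.26, so those overlapped broadly. The grouping of the constructs follows their labels.

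Gene by gene, CCT6P1 had 21.3 and 30.0 CPM in labelled NLS libraries against 11.0 and 3.04 CPM in unlabelled ones, a log2 fold change of 1.87 ± 1.05 (edgeR adjusted p = 0.321). With NIK it had 19.7 and 11.5 CPM labelled against 3.31 and 5.79 CPM unlabelled, with 1.78 ± 1.05 (edgeR adjusted p = 0.343). Neither was called. With LMA the labelled libraries held 20.4 and 19.5 CPM and the unlabelled ones no count at all. With a floor of 3 counts in each library, the labelled CPM was at least 194.1-fold higher. That bound holds for the counts as deposited and covers counting error only, so it does not bound the difference in RNA level. Replicates differed by more than this: unlabelled OMM cycloheximide libraries had a mean of 5.79 and a standard deviation of 8.19 CPM. Unlabelled libraries of the other constructs held 1.15 to 15.6 CPM. Over the series 6 of 96 libraries had no CCT6P1 count. The authors' deposited table has CCT6P1 at log2 fold changes of 1.95 for NLS (p = 0.224), 1.25 for NIK (p = 0.426) and 1.63 for LMA (p = 0.315). Those values may rest on the unlabelled libraries of all constructs, while the bound for LMA uses only its own. At NucPore (7.26 and 13.3 CPM labelled, 8.76 and 7.71 unlabelled) labelled and unlabelled overlapped.

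Outside the nucleus CCT6P1 showed no call apart from the OMM nocodazole libraries. With ERM it had 6.52 and 2.00 CPM labelled against 7.85 and 13.0 CPM unlabelled, and with OMM 11.0 and 5.36 CPM labelled against 12.5 and 15.6 CPM unlabelled. In both the labelled libraries were lower, and neither was called (edgeR adjusted p = 0.5 for ERM, edgeR adjusted p = 0.851 for OMM). Labelled OMM nocodazole libraries of 3 min held 5.53 and 5.33 CPM and their unlabelled libraries no count, at least 38.5-fold higher with the same floor. Of the unlabelled libraries of 30 min, 1 held 3.19 CPM and the other no count. These were also the libraries with the most missing genes, up to 16.3%, and the part of that in the bound was not tested. Here too the bound covers counting error only.

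**Figure D5:**
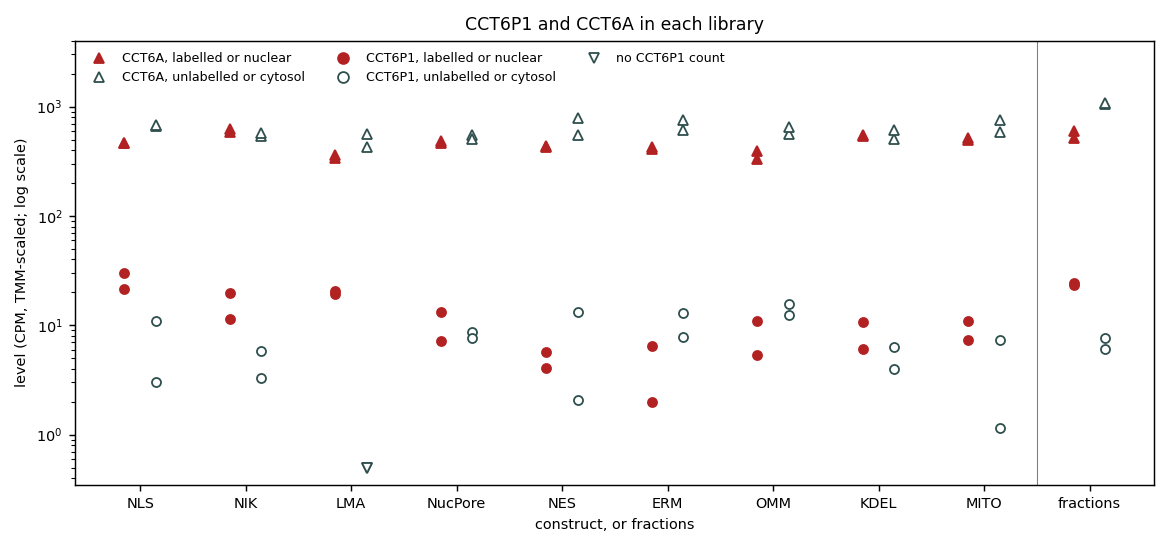
Level in CPM (vertical axis, log scale) of CCT6P1 (circles) and CCT6A (triangles) in each library, with labelled or nuclear libraries filled and left of unlabelled or cytosol ones. Inverted triangles at the foot stand for the LMA libraries with no CCT6P1 count and have no value; the circles of the nuclear fraction lie at 24.5 and 23.2 CPM, against 7.63 and 6.10 CPM in the cytosol fraction.

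Partners and clients of the chaperonin, listed by textbook role, are given for comparison. Their counts stand beside the shares of genes called lower: 2.45% of all and 19.5% of abundant genes with NLS, 4.03% and 27.2% with LMA, 7.64% and 28.8% with ERM, 1.97% and 14.1% with OMM, 2.47% and 15.7% with NES, and 27.9% and 60.2% in the nuclear fraction. Most abundant genes were thus lower in nuclei, as were most members of these lists. Of the 6 prefoldin subunits, 5 were called lower with ERM, 2 with OMM, 2 with NES and 5 in the nuclear fraction. With LMA 1 was and with NLS 0 were, and none was called higher in any of these. PFDN5 was at -2.45 ± 0.22 (edgeR adjusted p = 2.99e-10) with ERM and at -1.07 ± 0.21 (edgeR adjusted p = 0.000727) with OMM, and VBP1, another prefoldin subunit, at -1.35 ± 0.24 with ERM and -1.21 ± 0.24 with OMM. Of 17 clients, 12 were called lower with NLS, 12 with LMA, 10 with ERM, 6 with OMM, 0 with NES and 14 in the nuclear fraction. Higher calls numbered 1 with LMA, 2 with ERM and 2 with NES, where 3.67%, 5.23% and 1.37% of all genes were called higher. Of the abundant genes 9.03%, 22.9% and 8.66% were. TUBA1B, an alpha-tubulin, stood at -1.50 ± 0.15 (edgeR adjusted p = 4.6e-09) with ERM and at -1.01 ± 0.15 (edgeR adjusted p = 2.05e-05) with OMM. 

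With MITO 4 of 17 clients were called higher, where 0.891% of all genes and 4.54% of the abundant ones were, among them TUBA1B at 3.08 ± 0.16 (edgeR adjusted p = 3.33e-15) and TUBA1C at 2.36 ± 0.18. Of 12 other cytosolic chaperones, 7 were called lower with NLS, 6 with LMA, 3 with OMM, 5 with ERM and 10 in the nuclear fraction. With NES 2 were called lower and 1 higher. HSPA8, the constitutive Hsp70, was at -0.89 ± 0.19 with OMM. Of 6 tubulin cofactors, 3 were called lower with ERM, with TBCA at -2.60 ± 0.23 (edgeR adjusted p = 3.47e-10), and 0 with OMM. In the nuclear fraction 5 were called lower, with LMA 1, with NES 1 and with NLS 0. Of 3 phosducin-like and thioredoxin-like cofactors, 1 was called lower with ERM and 3 were in the nuclear fraction. The medians of the lists with ERM were -1.58 for prefoldin, -1.04 for clients and -0.44 for other chaperones, beside -1.01 for the 8 subunits.

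HSPD1, which encodes the chaperonin of mitochondria and whose protein is imported after synthesis in the cytosol, is a relative with another address. At OMM it was lower in labelled than unlabelled libraries without drug, at -0.65 ± 0.16 (edgeR adjusted p = 0.00694), and higher after cycloheximide, at 1.42 ± 0.15 (edgeR adjusted p = 1.23e-06). Cycloheximide minus puromycin, HSPD1 differed by 1.75 ± 0.21 (edgeR adjusted p = 2.36e-05) at OMM, where the median of the 8 cytosolic subunits was -0.83. HSPD1 was 1 of 5 chaperonin relatives listed. Of the 5, 2 were called higher at OMM after cycloheximide, HSPD1 among them, where 25.7% of abundant genes were. Cycloheximide minus puromycin at OMM, 2 were called higher, again with HSPD1, where 13.7% of abundant genes were. The shares called higher over all genes are not given here. The list medians, 1.42 and 1.75, equal the values of HSPD1 and so say nothing about the other relatives. In that same contrast 5 of 17 clients were called lower, against the 1.07% of all genes and 7.21% of abundant ones given above, among them CDC20 at -1.18 ± 0.24 (edgeR adjusted p = 0.00514) and TUBB at -0.77 ± 0.17, as were 2 of 12 other chaperones, STIP1 at -1.05 ± 0.24 and HSP90AB1 at -0.67 ± 0.16. No prefoldin subunit and no tubulin cofactor was.

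Over 15 comparisons of constructs and drugs, the genes whose log2 fold changes were most like the mean of the 8 subunits, among 11091 ranked, were MCM7 (Pearson r = 0.878), a replicative helicase subunit, SARS (0.876), the seryl-tRNA synthetase, RNASEH2A (0.871), PGK1 (0.858), a glycolytic kinase, and IMPDH2 (0.856), an enzyme of guanine nucleotide synthesis. Each subunit against the mean of the other 7 gave r between 0.686 for CCT3 and 0.855 for CCT4. These correlations describe profiles that share libraries and a scaling, and carry no test. In the authors' deposited table of the 9 constructs, whose header does not say whether its p-values are adjusted, all 8 subunits had log2 fold changes below 0 for NLS, LMA, NucPore, NES, ERM, OMM and KDEL, 6 for NIK and 5 for MITO. The authors' deposited table put the median of the 8 at -0.89 for ERM, -0.82 for OMM, -0.81 for LMA, -0.57 for NLS and -0.48 for NES. Its column names may refer to the 18 unlabelled libraries of all constructs, which the header does not explain. The fold changes above instead use each construct's own unlabelled libraries, so the values are not like for like.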

How the data were processed

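APEX-seq and fractionation libraries of HEK293T cells were analysed from the gene counts the authors deposited, in one table for the 9 constructs, one for the drugs, one for nocodazole, one for MITO and one for the fractions. Per the submitters' processing notes the tools were Trimmomatic, STAR, HTSeq, SAMtools, bedtools and DESeq2 on GRCh38 (hg38), with no versions or strand setting. The authors' deposited tables of their own comparisons hold log2 fold changes and p-values per the file headers, and were copied for description. Libraries were stranded and, per the labels' protocols, RNA under 100 nt was poorly recovered. Gene symbols came from the deposited tables and GENCODE release 29.

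Counts were fitted with edgeR 4.0.16 in R 4.3.3 (TMM scaling, filterByExpr, trended dispersion, quasi-likelihood F test), as group means over all libraries of a table, with Benjamini-Hochberg adjustment over all genes tested in each of 39 comparisons and a threshold of 0.05. Differences between constructs or drugs were fitted as contrasts of labelled minus unlabelled. Standard errors were derived from the log2 fold change and its F statistic. CPM values are on TMM-scaled totals, and their precision rests on 2 libraries a group. Where a group had no count, 3 counts in each library served as the floor for a bound, which covers counting error only. The steps were tested on simulated data. The members and lists were chosen with earlier results of these data known. The text names all 9 members, 4 landmarks, up to 2 genes of each list with the smallest p in the comparison described, and the 5 genes most like the mean of the subunits. The technical repeat of a labelled MITO library was left out. No 2 replicates agreed within sampling noise (chi-square per gene at least 7.44). The sample titles do not say whether replicate numbers pair libraries, and the main fits took them as unpaired. Alternatives were a fit in DESeq2 1.42.0, relative log expression (RLE) size factors, all genes with a count kept, a fit of each comparison by itself, the replicate number as a block, each library left out in turn, controls of the same nocodazole time, the technical repeat kept, CPM of unscaled totals and other transcript lengths. Added after seeing the data were controls of all 9 constructs and the removal of libraries of low complexity, those with over 2% of the genes averaging at least 5 CPM at 0, with the fuller library of each group kept even where it was over that limit.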

Additional observations from a re-analysis of the deposited data

Results flagged for a closer look

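Differences between places or drugs that passed the threshold are repeated here with their values. ERM minus NES, CCT7 was lower by a log2 difference of -0.91, with labelled below unlabelled in 2 of 2 libraries at both places. Cycloheximide minus puromycin at OMM, the log2 differences were -1.20 for CCT8, -0.98 for CCT5, -0.92 for CCT2, -0.89 for CCT7 and -0.77 for CCT3. With cycloheximide both labelled OMM libraries lay below both unlabelled ones for each of these 5 genes.

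In 3 further cases all labelled libraries lay above all unlabelled ones with puromycin and below them without drug. CCT8 at OMM had log2 fold changes of 0.67 with puromycin and -0.92 untreated. CCT7 at OMM had 0.29 with puromycin and -0.66 untreated. CCT8 at NES had 0.08 with puromycin and -0.50 untreated. These differences were not tested, since treated and untreated libraries lie in separately normalized tables.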

How the results depend on the processing

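No called value of a member changed sign under any alternative run. The median log2 fold change of the 8 subunits moved by more than the spread between replicates as follows. With RLE size factors it was -0.76 for LMA and -0.10 for OMM puromycin, and with DESeq2 likewise -0.76 and -0.10. Without the filter on low counts it was -0.88 for LMA. With only the libraries of the comparison it was -0.076 for OMM puromycin. With unlabelled libraries of the same time it was -0.45 for NES at 3 min of nocodazole. With controls of all 9 constructs it was -0.60 for NLS, -0.34 for NIK, -0.87 for LMA and -0.47 for NucPore. With libraries of low complexity removed, each group keeping its fuller library, it was -0.36 for NIK, -0.31 for NES, -0.76 for ERM minus NES, -0.87 for OMM cycloheximide, -0.32 for NES puromycin and -0.43 for MITO total RNA.

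Leaving out single libraries, the median ranged over -0.79 to -0.65 for NLS, -0.35 to -0.28 for NIK, -0.94 to -0.82 for LMA, -0.50 to -0.31 for NES, -0.90 to -0.66 for OMM, -0.87 to -0.74 for OMM cycloheximide, -0.14 to -0.0002 for OMM puromycin, -0.45 to -0.32 for NES puromycin and -0.94 to -0.65 for cycloheximide minus puromycin at OMM. Under nocodazole it ranged over -0.77 to -0.59 at OMM at 9 min and -0.61 to -0.43 at 2 h, over -0.37 to -0.25 at NES at 6 min, -0.58 to -0.36 at 30 min and -0.55 to -0.36 at 2 h, and over -0.41 to -0.23 for OMM minus NES at 6 min. It was -0.43 to -0.23 for MITO total RNA and -1.24 to -0.90 for the fractions. The cause of these moves was not tested.

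Calls of subunits over the 39 comparisons numbered 111, against 145 with DESeq2, 116 with RLE size factors and 93 without the filter. With the replicate number as a block there were 93 and no median moved beyond the spread. Deviations of same-numbered libraries correlated by -0.189 to 0.146 over 22 pairs of groups, with 1 above 0.1, that of the fractions. The numbers thus showed no pairing of labelled with unlabelled libraries. Whether fractions of the same number came from the same cells is not given by their titles. Fitting only the libraries of a comparison gave 38 calls against 103 over 38 comparisons, where fewer libraries estimate the spread. Against controls of all 9 constructs there were 48 calls, not 32, over 9 comparisons, against controls of the same time 12, not 17, over 6, and without libraries of low complexity 93, not 77, over 29. In single comparisons, DESeq2 called 8 with NLS (5 in edgeR), 6 with NES (2), 7 with NES cycloheximide (4), 5 with NES puromycin (3) and 6 with OMM CCCP (3), and no filter gave 0 with NIK (3) and NES (2), 1 with NES puromycin (3) and 2 with NES CCCP (5). The replicate block gave 1 with NIK, 0 with NES, 1 with NES puromycin and 2 with NES CCCP. Without the filter the median over all genes fell to 0 for OMM cycloheximide and for cycloheximide minus puromycin at OMM, against 0.40 and 0.37 with it, while the subunit medians moved by -0.05 and -0.06. The depth of 2 libraries a group limits all these values.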
